A study of Mus musculus with 6 samples.

Results

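The levels of 10 genes that serve as general markers of macrophages, among them the genes of the 3 chains of C1q, were followed in 6 mouse mammary tumours. The genes were Adgre1, Csf1r, Cd68, C1qa, C1qb, C1qc, Tyrobp, Aif1, Mpeg1 and Ms4a7. Earlier results of these data were known when these 10 genes were chosen. Their probe sets were taken by symbol alone, as each probe set whose annotation gives exactly 1 gene symbol, that symbol being among the 10. This gave 14 of the 20380 probe sets with 1 gene, and 10 of the 12393 genes that the array names in this way. Csf1r and C1qb had 3 probe sets each and the other genes 1. All 10 genes were bright enough to be tested, among 9249 genes in all.

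The tumours grew from 4T1 cells, an established mouse mammary tumour line. Tumours from control cells were set beside tumours from cells in which Bptf, a subunit of the NURF chromatin remodelling complex, was knocked down (Bptf KD) with short hairpin RNA carried by the retrovirus MMLV. In either group 10000 cells went into the fourth mammary fat pad of mice whose genotype the labels write as Ifrg2r -/- (NSG), and the mice were killed on day 21. The labels call the 3 tumours of each group biological triplicates. Necrotic tissue, where seen after hematoxylin and eosin staining, was cut away, and 500 ng of RNA per tumour was labelled for 1 Affymetrix array. The sources used here do not say what the control cells carried, whether each tumour had a mouse of its own, or the age of the mice. The series concerns CD8 T cells and tumour cells depleted of NURF, and NSG mice are known to keep myeloid cells while T, B and natural killer cells are missing.

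Macrophages live on signals through the receptor encoded by Csf1r, whose ligands are CSF1 and IL-34. They carry the adhesion receptor encoded by Adgre1, a standard antigen for staining, on their surface and CD68 in their lysosomes. They are the main source of C1q, the recognition molecule of the classical complement pathway, which is built from chains encoded by C1qa, C1qb and C1qc and acts with the proteases C1r and C1s, made largely by other cells. In tumours, C1q and the adaptor DAP12, encoded by Tyrobp, are widely used to mark macrophages of the tumour tissue.

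Values are deposited log2 levels made with RMA, on which 1 unit is a 2-fold difference. The level of a gene can be followed across tumours, but not set against that of another gene, because probe sets differ in brightness. Array medians lay between 7.60 and 7.70. In bulk tissue, fewer cells of a type and less RNA per cell cannot be told apart. The targeted gene was checked first. The brightest of its 4 probe sets read 10.69, 9.77 and 10.59 in control tumours 1 to 3 and 9.60, 9.56 and 9.99 in the Bptf KD tumours, a difference of -0.63 (adjusted p = 0.372 in the limma fit across all genes). On the other 3 probe sets the tumour labelled control 2 read 7.59, 6.88 and 5.41, below every Bptf KD tumour, so this tumour goes against its label on Bptf. It also stood apart over the array, with the lowest level of 32.1% of all genes tested and the highest level of 27.5%. Its mean was the highest for the skeletal muscle list (11.32, against 6.31 to 9.12 in the other 5 tumours). The same held for the keratinocyte list (9.65, against 6.85 to 7.24). This tumour also held the highest level of 11 of 11 adipocyte markers and of 6 of 8 mast cell markers. Results that rest on it are given without it as well.

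RefSeq's promoter table of the assembly GRCm38.p6 held 6 of the 10 genes, with 7 start sites. Levels of 4 of these genes, on the brightest probe set of each, went up and down together over the tumours (the correlations follow further on). The 250 bases before their start sites are printed here, to show which of the letters searched each holds. Each is written 5′ to 3′ on the strand of its gene. Capitals mark GAGGAA or AGGAAGT, the letters typical of sites of PU.1, the myeloid transcription factor encoded by Spi1, on either strand. C1qb (chr4:136886201-136886450, minus strand) and its neighbour C1qc (chr4:136892915-136893164, minus strand) lie side by side with C1qa. Aif1 is at chr17:35176053-35176302 on the minus strand and Mpeg1 at chr19:12460520-12460769 on the plus strand.
C1qb: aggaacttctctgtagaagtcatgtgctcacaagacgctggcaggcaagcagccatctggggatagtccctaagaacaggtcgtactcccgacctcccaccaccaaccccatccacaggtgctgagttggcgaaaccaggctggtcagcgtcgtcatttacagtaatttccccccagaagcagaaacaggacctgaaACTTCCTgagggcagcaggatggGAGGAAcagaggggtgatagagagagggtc
C1qc: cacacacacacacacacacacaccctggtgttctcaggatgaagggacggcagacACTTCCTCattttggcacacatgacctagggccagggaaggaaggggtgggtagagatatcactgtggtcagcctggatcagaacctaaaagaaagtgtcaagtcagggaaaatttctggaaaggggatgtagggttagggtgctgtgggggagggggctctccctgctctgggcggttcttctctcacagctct
Aif1: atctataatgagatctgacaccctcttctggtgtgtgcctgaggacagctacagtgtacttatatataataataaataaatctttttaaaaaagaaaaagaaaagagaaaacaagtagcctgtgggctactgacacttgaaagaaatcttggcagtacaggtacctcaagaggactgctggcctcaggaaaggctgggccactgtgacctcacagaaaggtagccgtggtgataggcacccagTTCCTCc
Mpeg1: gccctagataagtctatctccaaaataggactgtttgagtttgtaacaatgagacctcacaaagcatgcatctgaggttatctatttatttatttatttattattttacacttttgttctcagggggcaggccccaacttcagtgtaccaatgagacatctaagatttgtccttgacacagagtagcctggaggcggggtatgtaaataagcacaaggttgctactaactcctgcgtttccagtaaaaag

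GAGGAA was found, on 1 strand or the other, in the window of C1qb, C1qc, Aif1 and Cd68, or 4 of the 7 windows, against 23.3% of all 32851 promoter windows of the same length. AGGAAGT was found in those of C1qb and C1qc, against 7.69% of all. In C1qc the letters overlap in 1 run of 8 bases, and in C1qb they lie apart. TGANTCA, typical of AP-1, was in those of Cd68 and of Ms4a7 (6.75% of all), and TTGCNNAA, typical of C/EBP factors, in that of Cd68 (9.56% of all). The E-box CACGTG (6.02% of all) and TATAAA (12.4% of all) were in none of the 7. Mpeg1 held none of the letters searched. A match describes the letters and does not show that a factor binds.

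Between Bptf KD and control tumours, none of the 10 genes passed the threshold. The levels of C1qa, C1qb, C1qc and Aif1 were higher in each Bptf KD tumour than in each control tumour, by 0.26 to 0.40 log2 units, and those of Mpeg1 and Tyrobp differed by 0.48 and 0.39 with overlapping groups. Csf1r, Cd68, Adgre1 and Ms4a7 differed by -0.09 to 0.23, less than the spread between tumours. At an adjusted p under 0.05 in limma, 75 of the 9249 genes were called in either direction (0.811%) and 0 of the 10. At an unadjusted p under 0.05, 4 of the 10 were higher in Bptf KD tumours (C1qb, C1qc, Aif1 and Mpeg1), against 7.65% of all genes. Groups that did not overlap, with Bptf KD higher, were seen in 4 of the 10 and in 11.8% of all genes. The difference was positive for 9 of the 10 and for 59.6% of all genes. Its median was 0.32 over the 10 genes and 0.06 over all genes tested, and 0.29 and 0.04 without the tumour labelled control 2. An exact two-sided permutation test of 3 tumours against 3 can reach 0.1 at the lowest.

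**Figure D1:**
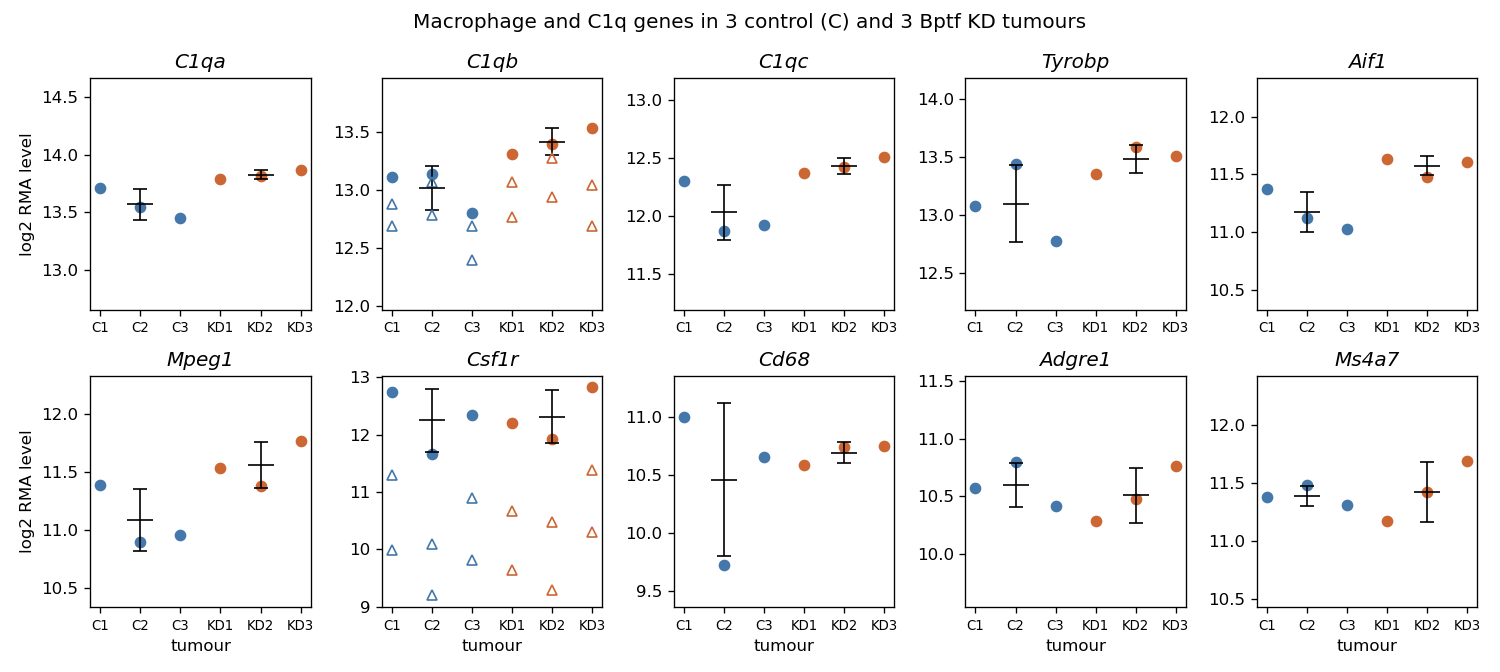
Log2 RMA level (vertical axes, which do not start at 0 and differ in range) of the 10 genes in control tumours 1 to 3 (C, blue) and Bptf KD tumours 1 to 3 (KD, orange); filled circles are the brightest probe set of a gene, open triangles its other probe sets, and bars the group mean ± SD of the circles. The 2 groups of circles do not overlap for C1qa, C1qb, C1qc and Aif1, and Cd68 and Csf1r are lowest in control tumour 2.

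C1qa encodes the A chain of C1q (probe set 1417381_at). Its level was 13.71, 13.55 and 13.45 in control tumours 1 to 3 and 13.79, 13.82 and 13.87 in the Bptf KD tumours. The Bptf KD tumours lay close to each other and above all controls, with control tumour 1 close beneath them. The means were 13.57 ± 0.13 and 13.83 ± 0.04 (SD, n = 3 each), a difference of 0.26 (SE 0.12, 95% interval -0.03 to 0.54, limma adjusted p = 0.423, exact permutation p = 0.1), or 1.20-fold.

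C1qb encodes the B chain and was read by 3 probe sets. The brightest, 1417063_at, gave 13.11, 13.14 and 12.80 in the control tumours and 13.31, 13.40 and 13.54 in the Bptf KD tumours. The groups did not overlap, and control tumour 3 was lowest. The means were 13.02 ± 0.19 and 13.42 ± 0.12 (SD, n = 3 each), a difference of 0.40 (SE 0.14, 95% interval 0.06 to 0.74, limma adjusted p = 0.301, exact permutation p = 0.1). On 1437726_x_at the control tumours read 12.88, 13.07 and 12.69 and the Bptf KD tumours 13.07, 13.28 and 13.04, a difference of 0.25. On 1434366_x_at they read 12.69, 12.78 and 12.39 against 12.77, 12.94 and 12.69, a difference of 0.18. On both of these the groups overlapped, with control tumour 2 above Bptf KD tumour 3, so the separation of the groups for C1qb rests on the choice of probe set. These 2 probe sets followed each other over the 6 tumours (r = 0.960, rho = 0.971, exact permutation p of r = 0.00556), while the brightest correlated with them at r = 0.798 and 0.727 (exact permutation p = 0.0611 and 0.1).

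C1qc encodes the C chain (1449401_at). It read 12.30, 11.87 and 11.92 in the control tumours and 12.37, 12.42 and 12.51 in the Bptf KD tumours. As for C1qa, control tumour 1 lay just under the Bptf KD tumours and the other controls lower. The means were 12.03 ± 0.24 and 12.43 ± 0.07 (SD, n = 3 each), a difference of 0.40 (SE 0.15, 95% interval 0.05 to 0.76, limma adjusted p = 0.326, exact permutation p = 0.1). Without the tumour labelled control 2 the differences of C1qa, C1qb and C1qc were 0.25, 0.46 and 0.32, and none was called (limma adjusted p = 0.235, 0.0987 and 0.197).

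Genes that act with C1q in the complement cascade differed in the other direction. Of the list of the classical pathway, its regulators and receptors of C1q, 14 of 15 genes on the array were tested, 10 were lower and 4 higher in the Bptf KD tumours, and 3 fell (median difference -0.15, against 0.06 for all genes tested). C1s1, which encodes a C1s protease, read 9.89, 10.60 and 10.49 in the control tumours and 8.31, 7.69 and 7.64 in the Bptf KD tumours and fell by 2.45 (limma adjusted p = 0.0154). Serping1, which encodes the C1 inhibitor, read 11.49, 11.89 and 11.84 in the control tumours and 10.01, 9.91 and 9.55 in the Bptf KD tumours and fell by 1.92 (limma adjusted p = 0.00987). C2, the next protease of the cascade, fell by 1.39 (limma adjusted p = 0.0498), a call that ended with the muscle mean as a covariate (adjusted p = 0.0965). Over the alternatives tried, the adjusted p of C1s1 ran from 9.90e-04 to 0.103 and that of Serping1 from 5.00e-04 to 0.0812, with calls in 13 of 17 each. The calls of C1s1, Serping1 and C2 ended when control tumour 3 (limma adjusted p = 0.0737, 0.0525 and 0.166) or any 1 of the Bptf KD tumours was left out (limma adjusted p = 0.0608 to 0.224). C1ra, the partner protease of C1s, and Cfb of the alternative pathway, both chosen after their values were seen, differed by -1.27 and -1.08 (limma adjusted p = 0.0971 and 0.0827). Both were called lower once the tumour labelled control 2 was left out, at -1.02 and -0.96 (limma adjusted p = 0.0396 and 0.0485). They were called in only 3 of 17 alternatives each, with limma adjusted p of up to 0.306 and 0.278. Without that tumour the list had 5 called lower in place of 3, while the count over all 9249 genes went from 61 to 233. Among genes for receptors and partners of C1q, also named after their values were seen, Lrp1 differed by -0.52 (unadjusted p = 0.0106 and adjusted p = 0.210 in limma), Cd93 by -0.10, Calr by -0.06 and C1qbp by 0.08, and none passed the test.

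Fibroblast and adipocyte markers moved with these genes. The 24 tested fibroblast and matrix markers were all lower in Bptf KD tumours and 7 fell, while 61 of all 9249 genes fell, with a mean level of 11.39 to 11.69 in the control and 10.43 to 10.62 in the Bptf KD tumours. The 11 tested adipocyte markers were all lower and 7 fell, with means of 9.73 to 10.60 against 6.83 to 7.80. The fibroblast list had 13 genes called lower without the tumour labelled control 2, 3 with the muscle mean as a covariate and 22 with array weights. In the same settings 233, 41 and 691 of all 9249 genes were called lower. The part of these cells in the fall of C1s1, Serping1 and C2 was not tested. The 3 C1q chains were not lower with them.

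**Figure D2:**
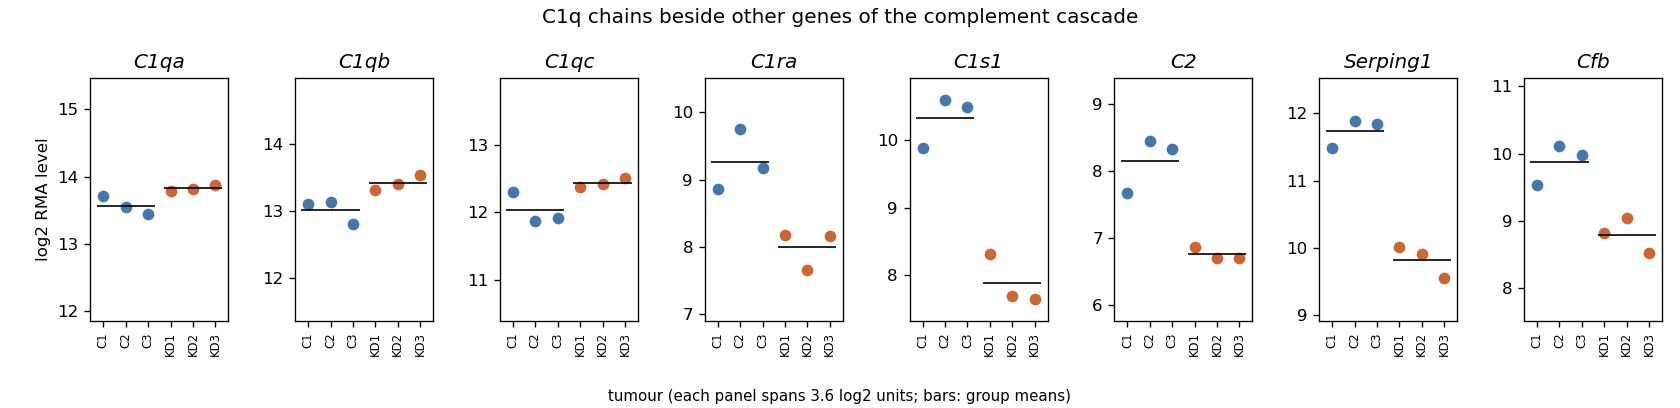
Log2 RMA level (vertical axes of equal span, not starting at 0) of the C1q chains and of 5 other complement genes in control (C, blue) and Bptf KD (KD, orange) tumours, 1 point per tumour, with bars at the group means. The C1q chains differ by 0.26 to 0.40 upward, and the differences of C1s1 and Serping1 are -2.45 and -1.92.

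Tyrobp encodes DAP12, the membrane adaptor through which TREM receptors signal to SYK (1450792_at). It read 13.08, 13.44 and 12.77 in the control tumours and 13.35, 13.59 and 13.51 in the Bptf KD tumours. The groups overlapped, because the tumour labelled control 2 lay above Bptf KD tumour 1. The means were 13.10 ± 0.34 and 13.48 ± 0.12 (SD, n = 3 each), a difference of 0.39 (SE 0.19, 95% interval -0.06 to 0.83, limma adjusted p = 0.444, exact permutation p = 0.2). Without that tumour the difference was 0.56 (limma adjusted p = 0.0737). Of 16 tested genes for receptors coupled to DAP12 and their signalling, 13 were higher and 3 lower in Bptf KD tumours, and 0 passed the limma test (0 also at an unadjusted p under 0.05, median difference 0.13). Plcg2, a phospholipase of the pathway, differed by 0.76 (limma adjusted p = 0.571), Vav1 by 0.36 (0.645) and Trem1, a receptor of neutrophils and monocytes, by 0.29 (0.604). For Plcg2 the tumour labelled control 2, at 8.96, lay far below the other 5, at 10.26 to 11.10. Without that tumour, 1 gene of the list was called higher, as were 179 of all 9249 genes.

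Csf1r encodes the receptor that keeps macrophages alive. Its brightest probe set, 1419872_at, read 12.75, 11.66 and 12.35 in the control tumours and 12.20, 11.92 and 12.83 in the Bptf KD tumours. Control tumour 1 and Bptf KD tumour 3 were high, the tumour labelled control 2 was lowest, and the groups overlapped over most of their range. The means were 12.25 ± 0.55 and 12.32 ± 0.47 (SD, n = 3 each), a difference of 0.06 (SE 0.33, 95% interval -0.73 to 0.86, limma adjusted p = 0.960, exact permutation p = 0.9). The other probe sets ordered the tumours alike: 1419873_s_at read 11.29, 10.09 and 10.89 against 10.67, 10.48 and 11.38, and 1423593_a_at read 9.99, 9.20 and 9.82 against 9.64, 9.30 and 10.30. The 3 probe sets correlated at r = 0.966 to 0.996 over the 6 tumours (rho = 1, exact permutation p of r = 0.00139 to 0.00556). Without the tumour labelled control 2 the sign turned, to -0.23 (limma adjusted p = 0.615).

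The ligands of that receptor did not pass the test either. Csf1 read 10.98, 9.79 and 10.54 in the control tumours and 10.40, 10.45 and 10.81 in the Bptf KD tumours, a difference of 0.12 (limma adjusted p = 0.911). Il34, the second ligand, differed by 0.30 (limma adjusted p = 0.545). Among 10 genes of myeloid growth factors and their receptors, 5 were higher and 5 lower, 0 were called in the limma fit and 3 had an unadjusted p under 0.05. These 3 were Flt3, a receptor of dendritic cell precursors, at -0.59, Csf3 at 0.53 and Csf2 at 0.44 (limma adjusted p = 0.214, 0.301 and 0.330). The median of the list was 0.04, and -0.22 without the tumour labelled control 2. Of 12 macrophage transcription factors, 7 were higher and 4 lower, none was called by limma, and 2 had an unadjusted p under 0.05. These were Cebpb at 0.58 and Irf8 at 0.50 (limma adjusted p = 0.253 and 0.243). Without the tumour labelled control 2, 11 of the 12 were higher and 1 lower, the median moved from 0.09 to 0.23, and Irf8 was called higher, at 0.63 (limma adjusted p = 0.0486). Irf8 was called in only 2 of 17 alternatives, with limma adjusted p of up to 0.590. Spi1, which encodes PU.1, read 8.78, 8.84 and 8.70 against 8.84, 8.99 and 9.01, a difference of 0.17 (limma adjusted p = 0.597).

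Cd68 encodes a glycoprotein of lysosomes and endosomes (1449164_at). It read 11.00, 9.72 and 10.66 in the control tumours and 10.59, 10.74 and 10.75 in the Bptf KD tumours. The Bptf KD tumours lay close together, and the tumour labelled control 2 lay far below the other 5. The means were 10.46 ± 0.66 and 10.69 ± 0.09 (SD, n = 3 each), a difference of 0.23 (SE 0.31, 95% interval -0.51 to 0.98, limma adjusted p = 0.815, exact permutation p = 0.8). It turned to -0.14 without that tumour (limma adjusted p = 0.564). Of 12 other genes of lysosomes and scavenger receptors, 5 were higher, 7 lower and 0 called by limma, with 3 at an unadjusted p under 0.05, all lower. These were Cd163, a haemoglobin scavenger receptor, at -2.13, Scarb1, a lipoprotein receptor, at -0.60, and Mrc1, the mannose receptor, at -0.75 (limma adjusted p = 0.0637, 0.0805 and 0.136). Without the tumour labelled control 2, 2 genes of the list were called lower, as were 233 of all 9249 genes.

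Adgre1 encodes an adhesion receptor of the macrophage surface (1451161_a_at). It read 10.57, 10.80 and 10.42 in the control tumours and 10.29, 10.48 and 10.76 in the Bptf KD tumours. The groups covered nearly the same range, and the tumour labelled control 2 was highest. The means were 10.60 ± 0.19 and 10.51 ± 0.24 (SD, n = 3 each), a difference of -0.09 (SE 0.17, 95% interval -0.49 to 0.32, limma adjusted p = 0.872, exact permutation p = 0.7). It was 0.02 without that tumour.

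Ms4a7 encodes a membrane protein with 4 predicted spans that is found in macrophages (1424754_at). It read 11.38, 11.48 and 11.31 in the control tumours and 11.17, 11.42 and 11.69 in the Bptf KD tumours. The control tumours lay between the lowest and the highest Bptf KD tumour. The means were 11.39 ± 0.09 and 11.43 ± 0.26 (SD, n = 3 each), a difference of 0.04 (SE 0.16, 95% interval -0.34 to 0.41, limma adjusted p = 0.949, exact permutation p = 0.9). Of 6 tested relatives of the MS4A family, 4 were higher, 2 lower and 0 called by limma, with 2 at an unadjusted p under 0.05. Ms4a4d and Ms4a8a differed by -1.19 and -0.68 and Ms4a6b by 0.31 (limma adjusted p = 0.344, 0.300 and 0.453). The other 5 family members on the array, Ms4a1, Ms4a2, Ms4a3, Ms4a4b and Ms4a10, were too dim to be tested.

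Aif1 encodes IBA1, an actin-binding protein of macrophages and microglia (1418204_s_at). It read 11.37, 11.12 and 11.03 in the control tumours and 11.63, 11.48 and 11.61 in the Bptf KD tumours. All Bptf KD tumours lay above all controls, the nearest pair being control tumour 1 and Bptf KD tumour 2. The means were 11.17 ± 0.18 and 11.57 ± 0.08 (SD, n = 3 each), a difference of 0.40 (SE 0.13, 95% interval 0.08 to 0.72, limma adjusted p = 0.274, exact permutation p = 0.1). It was 0.37 without the tumour labelled control 2 (limma adjusted p = 0.145).

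Mpeg1 encodes perforin-2, a pore-forming protein of phagocytes (1427076_at). It read 11.39, 10.90 and 10.96 in the control tumours and 11.54, 11.38 and 11.77 in the Bptf KD tumours. The groups touched, since control tumour 1 lay just above Bptf KD tumour 2. The means were 11.08 ± 0.27 and 11.56 ± 0.20 (SD, n = 3 each), a difference of 0.48 (SE 0.18, 95% interval 0.06 to 0.90, limma adjusted p = 0.328, exact permutation p = 0.2), or 1.40-fold. It was 0.39 without the tumour labelled control 2 (limma adjusted p = 0.208).

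**Figure D3:**
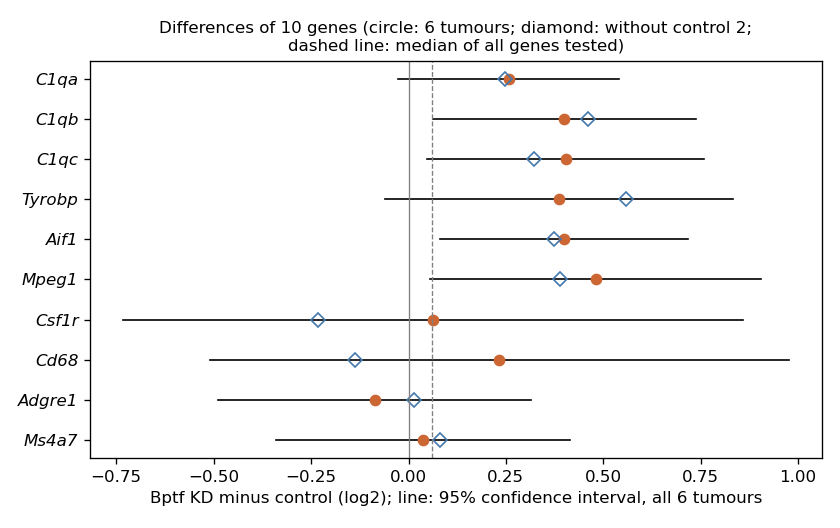
Difference of each gene in log2 units, Bptf KD minus control (horizontal axis), with circles and 95% confidence intervals from all 6 tumours, diamonds without the tumour labelled control 2 and a dashed line at the median of all genes tested (0.06). Circles of C1qb, C1qc, Aif1 and Mpeg1 have intervals above 0, and the diamonds of Csf1r, Cd68 and Adgre1 lie on the other side of 0 from their circles.

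The calls hinged on how the arrays were weighted. limma's array weights were 0.757, 0.150 and 4.00 for control tumours 1 to 3, from a fit that had not converged. Control tumour 3, which weighed most, held the lowest level of C1qa, C1qb, Tyrobp and Aif1. With these weights 6 of the 10 genes were called higher (C1qa, C1qb, C1qc, Tyrobp, Aif1 and Mpeg1, limma adjusted p = 0.0177 to 0.0471). Of all 9249 genes, 989 were called higher, and 18.2% were called in either direction. Leaving the tumour labelled control 2 out altogether called 0 of the 10, against 4.45% of all genes. C1qa, C1qb, C1qc, Tyrobp, Aif1 and Mpeg1 kept a positive difference in all 17 alternatives tried. Csf1r, Cd68, Adgre1 and Ms4a7 changed sign in 4, 2, 3 and 2 of the 17. Not all of the 17 could turn a sign, so these counts are a weak measure of stability. The filter, the eBayes settings and the replicate block left each difference as it was, as did the choice of probe set for genes with 1 probe set. Leaving out 1 tumour could not turn C1qa, C1qb, C1qc or Aif1, whose groups did not overlap.

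Further markers of macrophages were counted beside the 10. Of 26 tested, 19 were higher and 7 lower in Bptf KD tumours (median 0.21), and without the tumour labelled control 2, 15 and 11 (median 0.11). The mean of this list overlapped between the groups, at 10.79 to 10.98 in the control and 10.70 to 11.01 in the Bptf KD tumours. The mean of the 10 genes overlapped as well, at 11.77 to 12.07 and 12.02 to 12.28. Cybb, the catalytic subunit of the phagocyte oxidase, rose from 8.09 or less in the control tumours to 8.70, 8.81 and 8.91, a difference of 0.75 (limma adjusted p = 0.0491). This call ended with the muscle mean as a covariate (adjusted p = 0.0969) and when any tumour but the one labelled control 2 was left out (limma adjusted p = 0.0846 to 0.224). It stood in 5 of 17 alternatives, with differences of 0.70 to 0.80. Cd163 and Lyve1, which mark macrophages resident in connective tissue, differed by -2.13 and -1.06 (limma adjusted p = 0.0637 and 0.0692). Both passed the test as lower when the tumour labelled control 2 was dropped, at -1.85 and -0.87 (limma adjusted p = 0.0381 and 0.0238). They were called in only 4 and 5 of 17 alternatives, with limma adjusted p of up to 0.231 and 0.277. Of 6 Fc receptor genes, 5 were higher and 1 lower, 0 passed the limma test and 2 had an unadjusted p under 0.05, Fcgr4 at 0.84 and Fcgrt at -0.79 (limma adjusted p = 0.0878 and 0.144). Without the tumour labelled control 2, 3 Fc receptor genes were higher and 3 lower, and 1 was called higher, as were 179 of all 9249 genes.

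Markers of other leukocytes were read beside the 10 genes. Pan-leukocyte genes had means of 9.98 to 10.17 in the control and 10.08 to 10.35 in the Bptf KD tumours, with 14 of 20 higher and 5 lower (median 0.12), and without the tumour labelled control 2, 12 and 8 (median 0.04). Of the neutrophil markers on the array, 12 of 18 were tested, while Cxcr2, Mmp8, Ngp, Ltf, Elane and Mpo were too dim. The 12 had means of 8.21 to 8.79 and 8.71 to 8.93, with 10 higher (median 0.29). Among the higher ones Clec4e and Lcn2 had the lowest p, at 1.25 and 2.50 (limma adjusted p = 0.181 and 0.211). Mmp9 and G0s2 were lower, at -1.13 and -2.00 (limma adjusted p = 0.326 and 0.263). Without the tumour labelled control 2 the neutrophil median was 0.50 and 3 genes were called higher, as were 179 of all 9249 genes. Monocyte markers had means of 9.41 to 10.01 and 9.18 to 9.35, with 5 of 9 lower (median -0.16, and -0.10 without the tumour labelled control 2). Dendritic cell markers had means of 7.64 to 7.77 and 7.15 to 7.34, with 8 of 11 lower, and Cd209a fell by 1.20 (limma adjusted p = 0.00987), a call that ended when control tumour 3 or any 1 Bptf KD tumour was left out (limma adjusted p = 0.0525 to 0.0812). With the tumour labelled control 2 left out, 3 genes of the dendritic cell list were called lower, as were 233 of all 9249 genes. The part of these cell types in the levels of the 10 genes was not tested. Only 5 of 12 T cell markers, 3 of 10 B cell markers and 2 of 8 natural killer cell markers on the array were bright enough to be tested. Of the epithelial markers on the array, 16 of 17 were. Of these, 15 were higher and 1 lower in Bptf KD tumours, with 0 called by limma, 8 at an unadjusted p under 0.05 and a median of 0.48. Their means did not overlap, at 9.43 to 10.12 and 10.34 to 10.51, and their part in the levels of the 10 genes was not tested.

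Over the 6 tumours some of the 10 genes followed one another closely, though no pair passed the adjustment for the number of pairs. Each gene was read by its brightest probe set. On these, C1qa, C1qb, C1qc, Aif1 and Mpeg1 correlated with one another at r = 0.805 to 0.965. Pairs with C1qb were not computed on its other probe sets, which correlated with the brightest at only r = 0.798 and 0.727. Adgre1 followed Ms4a7 (r = 0.871), and Csf1r went with Cd68 (r = 0.762). All levels of a tumour come from 1 piece of tissue and 1 array, so a correlation also takes in what those share. Of the 45 pairs, 37 were positive (82.2%, against 50.8% of all pairs of genes tested) and 12 had r over 0.8 (26.7%, against 7.59%). Their median r was 0.45, against 0.01 for all pairs of genes. An exact permutation p of r under 0.05 was found for 12 of the 45 pairs, and for 0 after Benjamini-Hochberg adjustment over the 45 (lowest adjusted permutation p = 0.0833 for r and 0.328 for Spearman's rho).

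**Figure D4:**
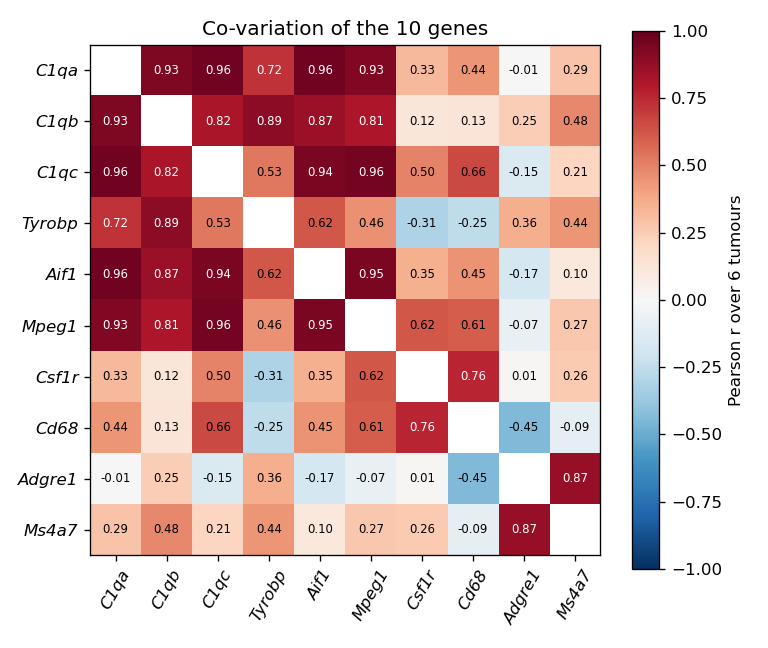
Pearson correlation over 6 tumours for each pair of the 10 genes, each read by its brightest probe set (colour and printed value, from -1 in blue to 1 in red). C1qa, C1qb, C1qc, Aif1 and Mpeg1 form a block with r of 0.805 to 0.965, and Adgre1 and Ms4a7 a pair at 0.871.

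The closest pair was C1qa and C1qc, whose r was 0.965 (exact permutation p = 0.00556, rho = 0.943 with exact permutation p = 0.0167, adjusted over the 45 pairs 0.0833 and 0.328). It was 0.980 without the 2 tumours farthest from the median of C1qa, 0.998 without the tumour labelled control 2 and 0.889 among deviations from each group's mean. C1qa and C1qb had r = 0.931 (exact permutation p = 0.00417, rho = 0.943, adjusted permutation p = 0.0833 for r), and 0.758 among deviations from the group means. C1qb and C1qc had r = 0.820 (exact permutation p = 0.0389, rho = 0.829, adjusted permutation p = 0.146), and 0.421 among those deviations. The correlation of the neighbouring genes C1qb and C1qc was thus smaller within the groups than over all tumours.

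Aif1 and Mpeg1 went with the C1q chains over all tumours, and less closely with C1qb. C1qa and Aif1 had r = 0.964 (exact permutation p = 0.00556, rho = 0.829), C1qc and Mpeg1 0.960 (0.00833, rho = 0.829), and Aif1 and Mpeg1 0.945 (0.0111, rho = 0.829), with adjusted permutation p of 0.0833, 0.0860 and 0.0860. Without the 2 tumours farthest from the median of the first gene these fell to 0.734, 0.769 and 0.751. Among deviations from the group means they were 0.862, 0.893 and 0.864.

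Over all 6 tumours Tyrobp had its highest r with the brightest probe set of C1qb (r = 0.893, exact permutation p = 0.0153, rho = 0.886, adjusted permutation p = 0.0860). Its r with C1qa was 0.720 and with C1qc 0.525 (exact permutation p = 0.0972 and 0.264). With Aif1 and Mpeg1 it was 0.619 and 0.461 (exact permutation p = 0.185 and 0.344). Its r without the tumour labelled control 2 was 0.965 with C1qb, 0.946 with C1qa, 0.929 with C1qc, 0.872 with Aif1 and 0.794 with Mpeg1. Among deviations from each group's mean, however, it was 0.807 with C1qb, 0.361 with C1qa, -0.08 with C1qc, 0.06 with Aif1 and -0.16 with Mpeg1. Within the groups Tyrobp thus followed C1qb but not the other genes of that block closely. Its r with Csf1r and Cd68 over all 6 was -0.31 and -0.25 (exact permutation p = 0.547 and 0.665). Adgre1 and Ms4a7 had r = 0.871 (exact permutation p = 0.0222, rho = 0.886, adjusted permutation p = 0.1), 0.936 without the 2 tumours farthest from the median of Adgre1, and 0.964 without the tumour labelled control 2. Csf1r and Cd68 had r = 0.762 (exact permutation p = 0.0375, rho = 0.771, adjusted permutation p = 0.146), and 0.546 without the tumour labelled control 2. The RNAs of Adgre1 and Cd68, whose proteins are both used as general stains for macrophages, ran against each other, with r = -0.45 (exact permutation p = 0.438, rho = 0.086), a sign that turned to 0.54 without the tumour labelled control 2.

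Each gene was set to mean 0 and SD 1 over the 6 tumours and the 10 were averaged. Bptf KD tumour 3 was highest at 1.05, followed by Bptf KD tumour 2 at 0.30, control tumour 1 at 0.13, Bptf KD tumour 1 at 0.04, the tumour labelled control 2 at -0.60 and control tumour 3 at -0.93. The groups overlapped through control tumour 1. A gene's r with the mean of the other 9 was 0.919 for C1qa, 0.911 for Mpeg1, 0.896 for C1qc, 0.869 for C1qb and 0.827 for Aif1. It was 0.541 for Tyrobp, 0.438 for Ms4a7, 0.407 for Csf1r, 0.344 for Cd68 and 0.0955 for Adgre1 (n = 6 tumours, given as a description). The ratio of the highest to the lowest tumour ran from 1.34-fold for C1qa and 1.42-fold for Adgre1 to 2.25-fold for Csf1r and 2.43-fold for Cd68.

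Genes outside the 10 were ranked by their r with that average (n = 6, a description with no test). The 12 most alike were Zswim6 (0.995), Pex14, Aatk, Ahr, Cryaa, Nek8, Pofut1, Smoc1, Rab32, Zhx1, Cdon and Flot1 (0.964), of which Ahr, the aryl hydrocarbon receptor, read 11.10, 10.45 and 10.27 in the control and 11.24, 11.37 and 11.81 in the Bptf KD tumours. The 5 most opposed were Upk1a (-0.997), Fignl1, Atp5a1, Kif20a and Lbr (-0.976). An r over 0.8 was seen for 467 of 9239 genes. It was seen for 6 of the 26 further macrophage markers, whose median r was 0.50, against 0.14 for all genes but the 10. The median r was 0.66 for Fc receptors, -0.22 for the other complement genes, -0.69 for adipocyte markers, -0.63 for fibroblast markers and -0.75 for 19 cell cycle genes.

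RNA quality was read from the control probe sets at the ends of the Actb message, as the log2 level of the 3′ minus that of the 5′ probe set. This difference was 0.76, 1.23 and 0.77 in the control tumours and 0.92, 1.05 and 0.76 in the Bptf KD tumours, with means of 0.92 and 0.91. It was largest in the tumour labelled control 2. The same difference for Gapdh varied little, at -0.06, 0.06 and -0.08 in the control tumours and -0.04, -0.04 and 0.04 in the Bptf KD tumours. Correlations with the Gapdh difference were not computed, so what follows rests on Actb alone. Over the 6 tumours Csf1r was lower where the Actb difference was larger, with r = -0.93 (exact permutation p = 0.00278, adjusted over the 10 correlations 0.0278) and rho = -0.99 (exact permutation p = 0.00556). Without the 2 tumours farthest from the median of the Actb difference, r was -0.77. For Cd68, r was -0.83 (exact permutation p = 0.0361, adjusted 0.181), rho was -0.81 (exact permutation p = 0.0722), and r without the 2 farthest tumours was -0.63. As large an r in either direction was found in 6.93% of all genes tested for Csf1r and in 25.0% for Cd68. For the other 8 genes r lay between -0.47 and 0.54 (adjusted permutation p of 0.854 or more). With the Actb difference as a covariate, an alternative chosen after the data were seen, Csf1r differed by 0.04 and Cd68 by 0.21 between the groups, and 0 of the 10 genes were called. The part of RNA quality in the levels of Csf1r and Cd68 was not tested further.

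**Figure D5:**
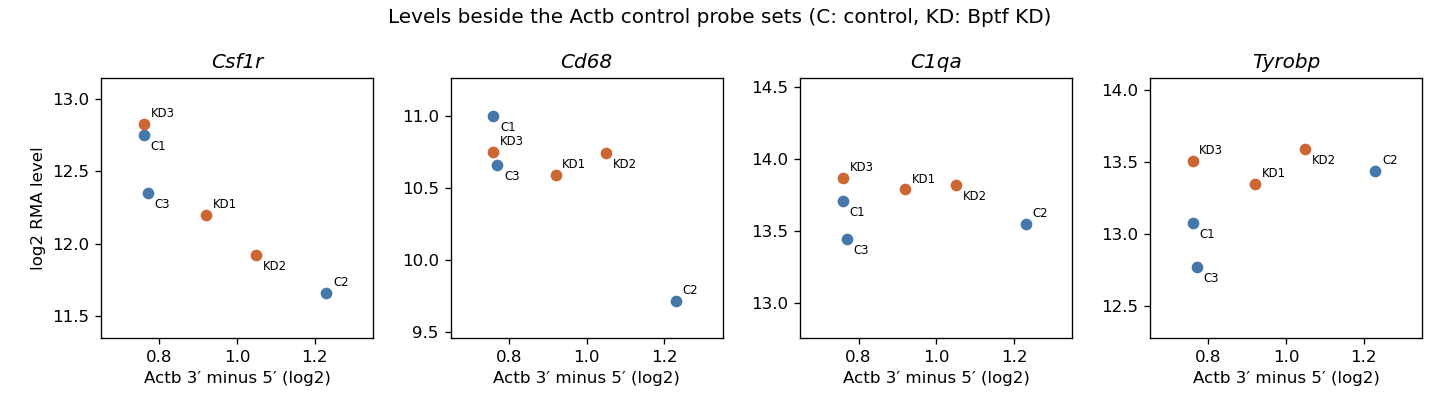
Log2 RMA level of Csf1r, Cd68, C1qa and Tyrobp (vertical axes, not starting at 0) against the log2 difference between the 3′ and 5′ control probe sets of Actb (horizontal axis), 1 point per tumour, control (C, blue) and Bptf KD (KD, orange). Csf1r and Cd68 are lowest in control tumour 2, where the Actb difference is 1.23, and C1qa and Tyrobp are not.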

How the data were processed

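Expression was measured in 6 tumours on 1 array each. The deposited values are log2 levels made by the authors with RMA, per the submitters' processing notes, which name no version. The log base was taken as 2, the scale RMA writes, since values ran from 2.98 to 15.17. No detection calls come with them. The number of arrays limits the precision, and so does the tumour labelled control 2, which stood apart. Leaving it out moved the count of genes called from 75 to 412. Of 22690 probe sets, 64 are controls, 20380 had 1 gene in GEO's platform annotation, 691 several and 1555 none listed. Symbols were matched to RefSeq's GRCm38.p6 table, in which 29 probe sets found no match and no symbol changed.

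The probe set with the highest mean stood for a gene, and genes in the lowest 30% of means (under 6.09) were left out. Groups were compared with limma 3.58.1 in R 4.3.3 (lmFit, eBayes, no covariate, Benjamini-Hochberg over 9249 genes, threshold 0.05), which gave all adjusted p-values of differences, and single genes also by exact permutation. Correlations used scipy 1.17.1 and all 720 orders of 6 tumours. P-values measure the spread between these tumours. The procedure was tested on simulated data. The 10 genes, the lists and the rules were chosen with earlier results of these data known. Named besides the 10 are Bptf, up to 3 genes, those of lowest p, of lists described, and the 12 most and 5 least alike genes. Lists of other cell types are given mainly by counts. Csf1, Il34 and other list genes outside this rule were named after their values were seen.

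Alternatives were the filter (none or the lowest 50%), the mean or most variable probe set of a gene, median centring, a further quantile normalisation, trend and robust eBayes, array weights, replicate number as a block, the skeletal muscle mean and, added after seeing the data, the Actb difference as covariates, and leaving out each tumour. Mouse chromosome positions come from the promoter table.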

Additional observations from a re-analysis of the deposited data

How the results depend on the processing

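The count of genes called (75) became 42 without the lowest 50% of probe sets, 49 with the skeletal muscle mean as a covariate, 501 with the Actb difference as a covariate and 1680 with array weights. It ranged from 0 to 412 when each tumour was left out, with 0 without Bptf KD tumour 3 and 412 without the tumour labelled control 2. Of the 10 genes, 0 were called under each of these, apart from 6 with array weights. limma's fit of those weights had not converged. The count of probe sets called (38) became 2625 with array weights and 588 with the Actb covariate, and ranged from 0 to 503 when each tumour was left out. Of the 14 probe sets of the 10 genes, 7 were called with array weights, against 0. The Bptf difference (-0.63) was -0.88 with array weights (adjusted p = 0.00904 in limma) and -0.65 with the Actb covariate (0.0183), and ranged from -0.92 to -0.46 when each tumour was left out, being called without the tumour labelled control 2. The median r of the 45 pairs (0.45) ranged from 0.29 without Bptf KD tumour 3 to 0.63 without Bptf KD tumour 1.

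Among the 10 genes, signs turned for Adgre1 with array weights (0.013), for Csf1r with array weights (-0.076) and the muscle covariate (-0.057), and for Cd68 with array weights (-0.013). When each tumour was left out, Adgre1 ranged from -0.21 to 0.023, Csf1r from -0.23 to 0.31, Cd68 from -0.14 to 0.50 and Ms4a7 from -0.10 to 0.17. The 170 settings of single genes include those that leave a difference as it is. Of the 170, 153 kept the sign and the side of the threshold, 6 gained a call and 11 turned sign. The causes were not tested.

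With the replicate number as a block, 107 genes and 98 probe sets were called, and 0 of the 10. The calls of C2 and Cybb ended there (adjusted p = 0.0622 and 0.0718 in limma). Numbers were not taken to pair the tumours, because the correlation of same-numbered tumours was 0.006 for number 1. It was 0.28 and 0.37 for the others, and 4 of 6 tumours correlated best with their own number, a hint of pairing from the data and not from the design.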

Other observations

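The tumour labelled control 2 held the lowest level of 4 of the 10 genes (Csf1r, Cd68, C1qc and Mpeg1), and of 32.1% of all genes tested. Among the Fc receptor genes it held the lowest level of 4 of 6, among pan-leukocyte genes of 10 of 20, and among the MS4A family of 0 of 6, where it held the highest of 3. Genes of the lists with the same low tumour as Csf1r, named after their values were seen, were Cx3cr1, the fractalkine receptor, at 8.86 against 10.20 to 11.45 in the other 5 tumours, and Mertk, a receptor for the uptake of dying cells, at 6.29 against 6.97 to 8.26. Fcgr3 was at 11.10 against 11.69 to 12.44. Levels of Trem2 and Clec5a, receptors coupled to DAP12, were not lowest there, at 9.95 against 9.38 to 9.97 and 10.07 against 8.81 to 9.82. These values are given without a test.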
